A study of Mus musculus with 4 samples.

Results

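The amino acid transporter genes described here are 10 solute carrier genes. Their products take part in moving amino acids, mainly cationic and neutral ones, across the cell membrane. The genes are Slc7a1, Slc7a3, Slc7a5, Slc7a6, Slc7a7, Slc7a11, Slc3a2, Slc38a2, Slc1a5 and Slc1a4. They were taken by their platform symbol, with every probe set of each, and are 10 of 18194 genes and 20 of 45101 probe sets on the array. They were proposed with a measured value in view, the low signal of Slc7a3 in both homozygous arrays. Their values in homozygous cells against the other cells are therefore a description, without a test, and nothing is supported with them. RNA came from mouse embryonic stem (ES) cells, which can form all tissues of the embryo, and each culture was hybridised to 1 oligonucleotide array. By the labels, 2 cultures were homozygous for the BAF250 knock-out (ko1, replicate 1, and ko2, replicate 2), with 1 heterozygous knock-out line and 1 wild type line. All 4 were cultured without feeder cells on gelatin, in a GMEM-based medium with 10% fetal bovine serum, 2 mM glutamine, added nonessential amino acids, pyruvate, beta-mercaptoethanol and the factor that keeps ES cells undifferentiated (LIF, 500 to 1000 units per ml). BAF250 is the ARID subunit of the BAF chromatin remodelling complex. The labels do not say which of the genes Arid1a and Arid1b was disrupted, how, or whether a line is a single clone, and they give no strain.

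Animal cells cannot make the essential amino acids and take them up through families of membrane carriers. SLC7A1 (CAT-1) and SLC7A3 (CAT-3) are closely related carriers of arginine and lysine that work alone. SLC7A5, SLC7A6, SLC7A7 and SLC7A11 are light chains that reach the cell surface only when joined by a disulphide bond to the heavy chain SLC3A2 (4F2hc, CD98), and they exchange one amino acid for another. SLC38A2, SLC1A5 and SLC1A4 use the sodium gradient to bring in small neutral amino acids such as glutamine, alanine and serine. In ES cells amino acid supply bears on growth and on the pluripotent state. When amino acids are short, the transcription factor ATF4 activates several of these genes through amino acid response elements.

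The RefSeq promoter table (build GRCm38.p6; 250 bases before to 50 after each start) held 13 windows for 7 of the 10 genes. Slc7a3, Slc7a5 and Slc1a5 had no entry there. The core of the amino acid response element, TGATGNAAN, was searched on both strands. It stood in 3.95% of all 32851 windows and in 4 of the 13 windows of these genes, which belong to Slc7a11, Slc7a7 and Slc1a4. The windows of Slc7a1, Slc7a6, Slc3a2 and Slc38a2 did not hold these letters. All distinct matches are shown, to give the letters behind this count; each is written 5′ to 3′ along the gene, with the match in capitals.
Slc7a11, upstream stretch, chr3:50443614-50443733, minus strand: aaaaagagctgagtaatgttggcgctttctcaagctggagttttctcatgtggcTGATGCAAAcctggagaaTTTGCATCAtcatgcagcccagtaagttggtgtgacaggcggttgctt
Slc7a7, chr14:54418051-54418110, minus strand: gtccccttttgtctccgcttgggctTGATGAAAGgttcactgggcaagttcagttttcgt
Slc7a7, chr14:54417923-54417952, minus strand: tagaagcTGATGCAACagcttccccgaggg
Slc1a4, at its start site, chr11:20332710-20332738, minus strand: gcctccagcgtgcctcctgcGTTGCATCA
Slc7a11 was the gene with both orientations: TGATGCAAA begins 66 bases and its reverse complement, TTTGCATCA, 48 bases before the start. The second Slc7a7 match lay in 2 overlapping windows, being 243 bases before one listed start and 1 base before another. A match is a run of letters only, and no factor's binding was measured.

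Signal differed in level between the arrays, with a median of 4.01 for wild type, 2.74 for heterozygous, 2.70 for ko1 and 2.61 for ko2. The median log2 difference of the 13730 genes tested was -0.68 between heterozygous and wild type, -0.75 between homozygous and wild type and -0.03 between homozygous and heterozygous. All log2 differences, folds and bounds below are therefore relative to the median gene unless called as deposited. The p-values test the differences as deposited, which carry these offsets, so the deposited difference stands beside each p given for a single gene, and where centring of the arrays on their medians changes a call this is said. They were computed on log2(signal + 0.675), which understates the change of dim genes. Background was taken as the brightest of 27 control probe sets for bacterial transcripts that are not spiked in, and was 7.57 (wild type), 6.92 (heterozygous), 5.55 (ko1) and 3.82 (ko2). The number of arrays limits all comparisons, since only the homozygous group had more than 1. Arid1a had a signal of 109 in wild type, 50.4 in the heterozygous line, 7.03 in ko1 and 3.57 in ko2. All 8 ES cell markers, Pou5f1 and Nanog among them, were above background on all 4 arrays. Their summed signal was 3188 for wild type, 1906 for heterozygous, 746 for ko1 and 860 for ko2. As deposited, 8 of 8 lay lower in both homozygous arrays than in both others, against 26.9% of all tested genes. Extraembryonic endoderm markers summed to 6044 (ko1) and 3446 (ko2) against 152 (wild type) and 104 (heterozygous). Of the 12 tested, 11 were higher in both homozygous arrays as deposited, against 11% of all tested genes. Amn was lower in both (0.381 and 5.26 against 7.1 and 5.55). Afp, a further marker, was above background on no array. Fibroblast markers, of feeder cells, summed to 34.7 and 47.2 against 29.2 and 17.5 in the same order. None was above background in heterozygous. Col1a2 alone was above it in both homozygous arrays (16.5 and 25.6 against 7.84 and 2.85). Trophoblast markers summed to 453 and 340 against 94.5 and 108. Most of each sum was the keratin genes Krt8 (188 and 89.6 against 30.3 and 46.2) and Krt18 (252 and 232 against 40.9 and 54). These passed the test against wild type, and 4 of the 6 tested did not. Of those 4, Tfap2c was highest in wild type (12.6, against 7.05 in ko1 and 0.993 in ko2). Eomes was above background on no array, and Elf5 and Gata3 in ko2 only. Cdx2, which was not tested, was above background in ko1 only. The ratio of the 3' to the 5' actin control, a sign of RNA quality, was 1.30 (wild type), 2.86 (heterozygous), 5.01 (ko1) and 2.61 (ko2). The part of these marker and quality differences in the values below was not tested. In such bulk RNA, fewer cells of a type and less RNA per cell cannot be told apart.

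Of the 20 probe sets, 6 were above background on all 4 arrays, 11 on some and 3 on none. The 6 belong to Slc3a2, Slc7a5, Slc7a7 and Slc38a2. In 9 of the 10 genes the brightest probe set, which stands for the gene, passed the filter on dim genes; that of Slc7a11 did not. Among these 9, both homozygous arrays lay above both others for Slc7a1, Slc7a6 and Slc1a5, and below both for Slc7a3, Slc7a7 and Slc38a2, in the signals as deposited. Over all tested genes 11% lay above in this way and 26.9% below. With each array centred on its median, 4 lay above, Slc3a2 being added, and 3 below, against 18.1% and 21.4% of all tested genes. The median of the 9 log2 differences was 0.38 for homozygous minus wild type and 1.09 for homozygous minus heterozygous. Since the genes were chosen on this contrast, nothing is read from these counts. Slc1a5, moreover, passed the filter on dim genes only through its homozygous signals, of which ko2 alone was above background.

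**Figure D1:**
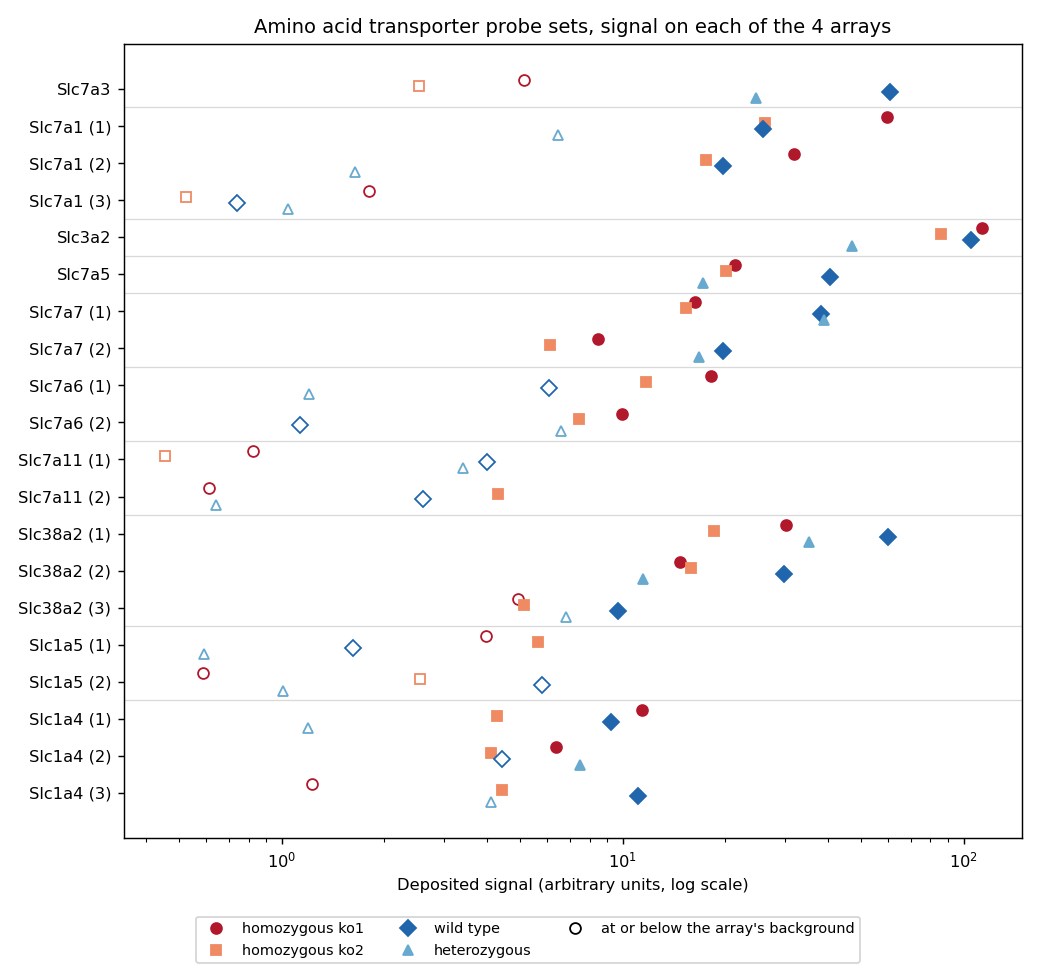
Deposited signal of the 20 transporter probe sets on the 4 arrays (horizontal log axis, arbitrary units), 1 row per probe set, numbered by brightness within a gene; open symbols are at or below the background of their array. Slc7a3 has open symbols in ko1 and ko2 and filled ones at 61 (wild type) and 24.6 (heterozygous), while Slc7a6 shows the opposite arrangement on both of its probe sets.

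The carriers of arginine and lysine that work alone went opposite ways. Slc7a3 has a single probe set (1417022_at; gene on chromosome X), with a signal of 61 in wild type cells, 24.6 in heterozygous cells, 5.12 in ko1 and 2.52 in ko2. Both homozygous values lay below background, and the wild type and heterozygous values lay well above it. The homozygous lines were thus at least 7.9-fold lower than wild type and at least 5.23-fold lower than heterozygous, relative to the median gene. The fitted log2 differences were -3.10 ± 0.70 (SE) and -2.52 ± 0.70. As deposited they were -3.84 and -2.56, so the direction is that of the deposited signals too.

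Slc7a1 (chromosome 5) encodes the carrier of the same substrates that most cell types use, and has 3 probe sets. The brightest (1454991_at) gave 59.5 (ko1), 26.2 (ko2), 25.8 (wild type) and 6.44 (heterozygous). Only ko1 stood clearly above wild type, ko2 being level with it as deposited, and the heterozygous value lay just below background. Relative to the median gene the homozygous lines were 2.55-fold higher than wild type (log2 difference 1.35 ± 0.60; 1.76 in ko1 and 0.77 in ko2). They were at least 5.78-fold higher than heterozygous, taking the fitted value, which was smaller than the 5.83-fold given by the background. The second probe set (1454992_at) read 31.8, 17.5, 19.7 and 1.64 in the same order of arrays. There ko2 was below wild type as deposited, and the log2 difference of homozygous minus wild type was 0.26 as deposited and 1.00 relative to the median gene. The third (1421533_at) was below background on every array, at 0.523 to 1.80. Slc7a1 was thus highest in ko1, the array with the highest actin ratio, and lowest in heterozygous on the pair of probe sets that gave a signal.

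**Figure D2:**
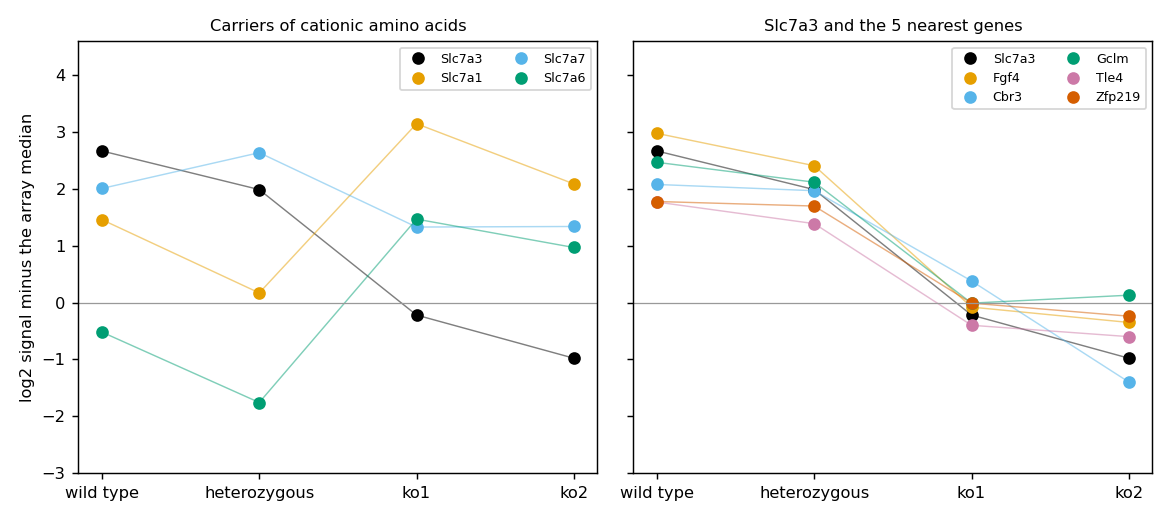
Log2 signal minus the median of the tested genes on each array (vertical axis) in wild type, heterozygous, ko1 and ko2, 1 point per array, for the probe set used per gene; lines only join points of a gene. On the left, Slc7a3 stands at 2.67 in wild type and at -0.22 and -0.98 in the homozygous lines, while Slc7a1 stands at 3.15 and 2.09 there; on the right, the 5 genes nearest to Slc7a3 in profile.

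The light chains SLC7A7 (y+LAT1) and SLC7A6 (y+LAT2) export cationic amino acids in exchange for neutral ones, and their genes also differed in direction. Slc7a7 (chromosome 14) gave 16.3 (ko1), 15.3 (ko2), 38.1 (wild type) and 38.9 (heterozygous) on its brighter probe set (1417392_a_at). The other probe set (1447181_s_at) gave 8.47, 6.14, 19.7 and 16.8. All 8 values were above background, and on both probe sets each homozygous array was lower than both others. The homozygous lines were close to each other (SD 0.06 on the log2 scale for the brighter probe set, n = 2). Relative to the median gene the difference from wild type was small, -0.49 ± 0.57 and -0.63 on the respective probe sets, within the error of the fit for the first. Against heterozygous it was -1.23 ± 0.57 and -1.11, so the heterozygous cells held the highest relative level.

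Slc7a6 (chromosome 8) was the reverse. Its brighter probe set (1460541_at) gave 18.1 (ko1) and 11.7 (ko2), both above background, against 6.08 (wild type) and 1.20 (heterozygous), both below it. Relative to the median gene the homozygous lines were at least 3.21-fold higher than wild type and at least 2.14-fold higher than heterozygous (fitted log2 differences 1.92 ± 0.91 and 3.05 ± 0.91). The other probe set (1433467_at) read 9.97 and 7.46 against 1.13 and 6.57. It gave relative bounds of at least 1.91-fold and at least 1.27-fold. The probe sets agree that both homozygous lines gave a signal above background and the other arrays did not. On the second this rests on unequal backgrounds, since heterozygous (6.57) fell just short of 6.92 while ko2 (7.46) had only 3.82 to pass. They disagree on which of wild type and heterozygous was the dimmer.

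The shared heavy chain gene, Slc3a2 (chromosome 19, 1425364_a_at), was above background throughout, at 113 (ko1), 86 (ko2), 105 (wild type) and 47.2 (heterozygous). As deposited, wild type lay between the homozygous lines (log2 difference -0.09), and heterozygous was the lowest array. Relative to the median gene the homozygous lines stood 1.58-fold above wild type (0.66 ± 0.54) and 2.12-fold above heterozygous (1.09 ± 0.54). The direction against wild type thus rests on the scaling. Slc7a5 (chromosome 8, 1418326_at) encodes LAT1, the main importer of leucine and other large neutral amino acids. In the same order it gave 21.4, 20.1, 40.5 and 17.2, with the homozygous lines nearly equal and between the other arrays. Its log2 differences of -0.20 ± 0.58 from wild type and 0.29 ± 0.58 from heterozygous were smaller than their errors.

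Slc7a11 (chromosome 3) encodes xCT, the exchanger that imports cystine for glutathione synthesis. Its brighter probe set (1420413_at) gave 0.821 (ko1), 0.453 (ko2), 3.99 (wild type) and 3.40 (heterozygous). All 4 values were below background, so the lower homozygous values carry no fold. The other (1443536_at) read 0.610, 4.30, 2.59 and 0.642, with ko2 just above its background of 3.82. The gene was not tested, and its level in these cells was not detectable on these probe sets in most arrays. The gene with motif matches in both orientations is thus one whose signal these arrays could not follow.

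Among the sodium-coupled carriers of neutral amino acids, Slc38a2 (chromosome 15), which encodes SNAT2, was the brightest. Its main probe set (1426722_at) gave 30.2 (ko1), 18.5 (ko2), 60.2 (wild type) and 35.3 (heterozygous). A second (1429593_at) gave 14.7, 15.9, 29.7 and 11.5, and the dimmest (1429594_at) 4.92, 5.14, 9.72 and 6.83. Wild type was highest on all 3 as deposited. Relative to the median gene the homozygous lines stood at -0.58 ± 0.55, -0.18 and -0.12 against wild type. Against heterozygous they stood at -0.53, 0.42 and -0.36, so the probe sets do not share a direction there. As deposited, the differences from wild type were -1.32, -0.92 and -0.87, and the median gene itself stood at -0.75. The source of that offset was not tested.

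Slc1a5 (chromosome 7), the gene of the glutamine carrier ASCT2, was dim. In the same order its probe sets gave 3.96, 5.64, 1.62 and 0.592 (1416629_at) and 0.586, 2.54, 5.79 and 1.01 (1440379_at). Only ko2 on the first was above background, and the probe sets order the arrays differently. Slc1a4 (chromosome 11), which encodes the related carrier ASCT1, had 3 probe sets that disagreed. They read 11.4, 4.27, 9.27 and 1.19 (1456003_a_at), then 6.37, 4.10, 4.44 and 7.49 (1423550_at), then 1.23, 4.44, 11.1 and 4.10 (1423549_at). The log2 difference of homozygous minus wild type was 0.38 ± 1.05 on the first, 0.93 on the second and -1.17 on the third. On the first, ko1 stood at 0.85 and ko2 at -0.26. For both ASCT genes these arrays set no order of the genotypes.

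**Figure D3:**
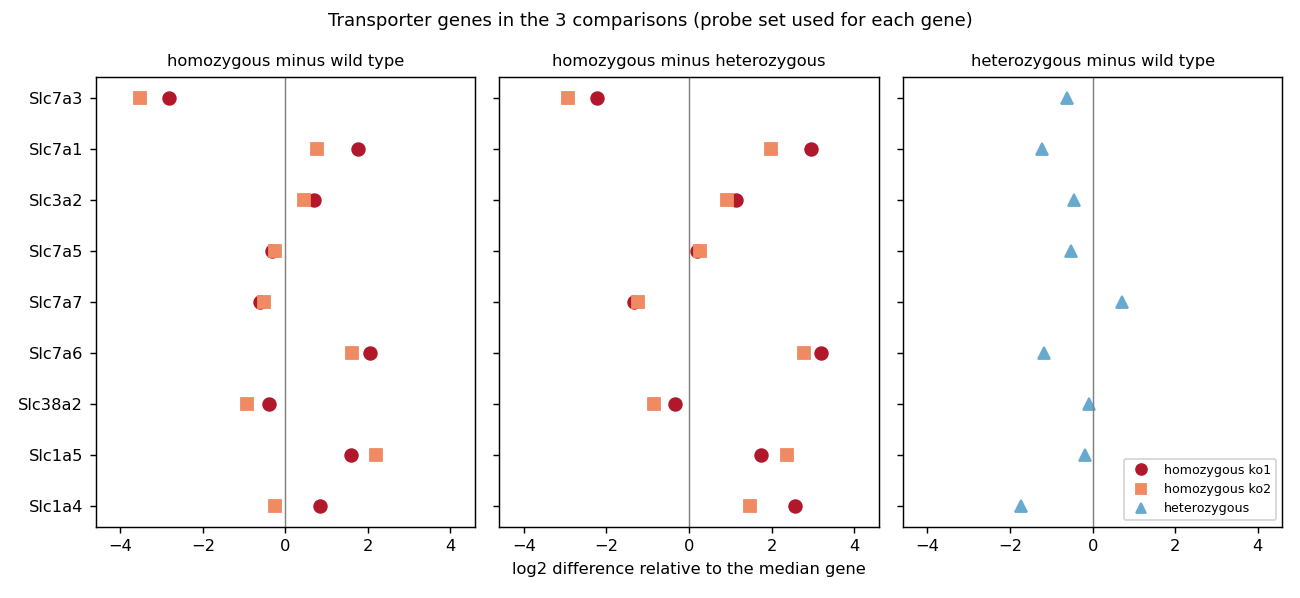
Log2 differences relative to the median gene (horizontal axes) for the 9 tested transporter genes on the probe set used, with ko1 and ko2 shown singly against wild type and heterozygous, and heterozygous against wild type; each point is relative to the median gene of its own pair of arrays. Slc7a3 lies far to the left for both lines in the first and second panel (-2.83 and -3.52 against wild type), and in the third panel 8 of 9 genes lie left of 0.

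The comparison of heterozygous with wild type, which asks what the loss of 1 copy goes with, was not used to choose the genes and was tested. It sets 1 array against 1, with the spread taken from the homozygous lines. None of the 9 genes passed (limma, Benjamini-Hochberg adjusted over all genes), against 0.0146% of all tested genes, which is 2 genes. At an unadjusted p below 0.05 there were 1 of these 9, Slc7a1, and 1038 of the 13730. Slc7a1 read 6.44, just below background, in heterozygous against 25.8 in wild type on its brightest probe set, at least 2.32-fold lower relative to the median gene (-1.22). The difference tested was -1.90 ± 0.69 as deposited (limma adjusted p = 0.569). Its second probe set had 1.64 against 19.7, at least 1.77-fold lower relative to the median gene. For the other 8 genes the differences as deposited ran from -2.41 (Slc1a4) to 0.03 (Slc7a7), with limma adjusted p-values from 0.657 to 0.994. With the arrays centred on their medians the adjusted p was 1 for all 9.

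Relative to the median gene, 8 of the 9 genes were lower in heterozygous than in wild type, with a median of -0.52. Slc7a7 was the exception (0.71 ± 0.66). Of the 8, Slc7a6 and Slc1a5 were below background in both wild type and heterozygous, so their sign sets no order. Slc1a4 kept no fold with heterozygous set at background. Slc1a4 stood at -1.73 ± 1.21 and Slc7a6 at -1.17 ± 1.05 on the probe sets used, but another probe set of each stood at 1.36 and 2.69, respectively. Slc7a3 stood at -0.61 ± 0.81, so its heterozygous level was within the error of wild type. With arrays centred, heterozygous was the lowest of the 4 arrays for 6 of the 9 genes, against 25% of all tested genes. Of these 6, only Slc3a2 and Slc7a5 were above background in heterozygous; Slc7a1, Slc7a6, Slc1a5 and Slc1a4 were not. Of all tested genes, 59.9% were at or below background on that array.

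Among the 13730 genes, those whose profile over the 4 arrays lay nearest to Slc7a3 were Fgf4, Cbr3, Gclm, Tle4 and Zfp219. Nearness was the Euclidean distance on log2 signals centred per array, for the brightest probe set of each gene. Fgf4, the gene of a growth factor that ES cells secrete, was at 0.83 and gave 5.72 (ko1), 4.27 (ko2), 75.7 (wild type) and 33.1 (heterozygous). Cbr3, a carbonyl reductase gene (0.94), gave 8.12, 1.72, 40.2 and 24.2. Gclm, the modifier subunit of the enzyme that starts glutathione synthesis (1.16), gave 6.06, 6.25, 52.8 and 27. Tle4, a corepressor gene (1.17), and Zfp219, a zinc finger gene (1.22), read 32.2 and 32.4 in wild type against at most 6.02 in either homozygous line. On another probe set Fgf4 read 6.44 (ko1), 9 (ko2), 50.1 (wild type) and 24.9 (heterozygous). On its dimmer ones it read 4.1, 6.54, 28.7 and 1.51, then 1.97, 0.159, 20.9 and 2.19. There, unlike for Slc7a3, heterozygous was below background. Another Tle4 probe set read 4.71, 4.41, 7.15 and 9.99, highest in heterozygous. A further one of Tle4 and the other of Gclm were below background on every array. All of these genes share the same 4 arrays, and several of these homozygous values lay at or near background. The likeness thus describes only these arrays, on the brightest probe sets.

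The rest of the amino acid pathway was followed in 5 lists of other genes, 129 in all, of which 109 were tested. In homozygous against wild type 4 of the 109 passed (3.67%), 1 higher and 3 lower, against 1.02% of all tested genes (0.401% higher and 0.619% lower). At an unadjusted limma p below 0.05 there were 18 of the 109, against 1632 of the 13730 genes tested. By list these were 4 of 26 other transporters, 1 of 23 response, 4 of 19 synthetase, 1 of 24 sensing and 8 of 17 amino acid use genes. Of 26 other amino acid transporter genes none passed (limma; 4 at an unadjusted p below 0.05; median -0.25, 11 above the median gene). The lowest was Slc38a3, a glutamine carrier of the SLC38A2 family, at 0.502 (ko1) and 1.45 (ko2) against 24.3 (wild type) and 6.58 (heterozygous), above background in wild type only (-3.98 ± 1.18 as deposited, limma adjusted p = 0.0939; relative -3.23). The highest was Slc3a1, the heavy chain of the cystine carrier of kidney, at 5.90 and 7.87 against 1.24 and 0.55 (1.97 ± 1.36 as deposited, limma adjusted p = 0.524; relative 2.71).

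The amino acid response list, ATF4 with genes that act before it, such as the kinase gene Eif2ak3, and genes it is known to activate, had 0 of 23 members past the limma test (1 at an unadjusted p below 0.05) and a median of 0.39, with 17 above the median gene. Its extremes were Nupr1, a stress-induced gene (8.96 and 9.87 against 3.47 in wild type, which was below background; 1.28 ± 0.96 as deposited, limma adjusted p = 0.551; relative 2.03), and Trib3, an inhibitor of ATF4 (6.73 and 4.61 against 14.9; -0.57 ± 0.88). The amino acid sensing list, of the mTORC1 kinase and the proteins that tell it of amino acids, had 0 of 24 past the test (limma; 1 at an unadjusted p below 0.05; median 0.04). Its extremes were Castor2 (1.39 ± 1.10) and Rragd (-2.33 ± 1.63), both dim.

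Among 19 aminoacyl-tRNA synthetases, which load amino acids onto tRNA, Wars alone passed (median of the list 0.20, 14 above the median gene). Wars, for tryptophan, gave 118 (ko1), 45.3 (ko2), 12.6 (wild type) and 22.4 (heterozygous). It rose on this probe set, by 2.48 ± 0.57 on the log2 scale as deposited (limma adjusted p = 0.0139), which is 9.37-fold relative to the median gene; centred on the array medians it passed too (adjusted p = 0.0416). Another of its probe sets (1415694_at) read 16.2, 16.9, 15 and 8.53, so the size of this rise rests on the probe set. Farsa (-1.33 ± 0.74) and Yars (0.93 ± 0.60) were the extremes among those that did not pass.

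In the list of amino acid use, 3 of 17 genes fell and none rose in the signals as deposited, where the median gene itself stood at -0.75 (median of the list relative to that gene, -0.36). With the arrays centred on their medians none of the 17 passed. Gclm, on the signals given above, fell by 2.97 ± 0.64 on the log2 scale as deposited (limma adjusted p = 0.00696; relative -2.22, adjusted p = 0.152 when centred). Got1, the cytosolic aspartate aminotransferase gene, had 92.8 in wild type, 34.5 in heterozygous and 16 and 17 in the homozygous lines. It fell by 2.44 ± 0.55 as deposited (limma adjusted p = 0.0119; relative -1.70, adjusted p = 0.201 when centred). Bcat1, which starts the breakdown of leucine, isoleucine and valine, had 57.7, 26.4, 14.6 and 8.48 in that order. It fell by 2.30 ± 0.60 as deposited (limma adjusted p = 0.041; relative -1.56, adjusted p = 0.426 when centred). On 1430111_a_at Bcat1 was lower in both homozygous lines too (23, 13.2, 0.626 and 5.6 in that order). On 1455699_at it read 0.59, 5.83, 6.87 and 2.13, with only ko1 above background, so its fall rests on the probe set. The other Gclm probe set was below background on every array. Glul, which makes glutamine, went the other way from Gclm, Got1 and Bcat1, with 57 and 46 against a wild type value of 19.3. It did not pass on either scale. Its difference was 1.38 ± 0.57 as deposited (limma adjusted p = 0.327) and 2.12 relative to the median gene (adjusted p = 0.206 when centred), so that it lay further from the median gene than Got1 or Bcat1. Tat was the lowest of those not called (-3.04 ± 1.27 as deposited, relative -2.29). All 4 pathway calls ended after quantile normalization, with spiked control centring, with probe sets averaged and without the intensity trend; after median centring Wars alone passed.

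Against heterozygous, 2 of the 109 genes passed, both of amino acid use and both higher in the homozygous lines, against 0.757% of all tested genes; they are named after their values were seen. Glul, with 57 and 46 against 7.61 in heterozygous, rose by 2.65 ± 0.57 as deposited (limma adjusted p = 0.0068), which is 6.41-fold relative to the median gene. Oat, the ornithine aminotransferase gene, read 19.6 and 20.8 against 1.20 in heterozygous, below background, and 9.33 in wild type, and rose by 3.47 ± 0.79 as deposited (limma adjusted p = 0.0122), at least 2.98-fold with heterozygous set at background. Both calls ended after either centring, after quantile normalization, with probe sets averaged and without the intensity trend, and that of Oat also without the filter on dim genes. None of the 109 passed in heterozygous against wild type (limma). There 17 of the 109 had an unadjusted p below 0.05, against 1038 of the 13730 genes tested.

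**Figure D4:**
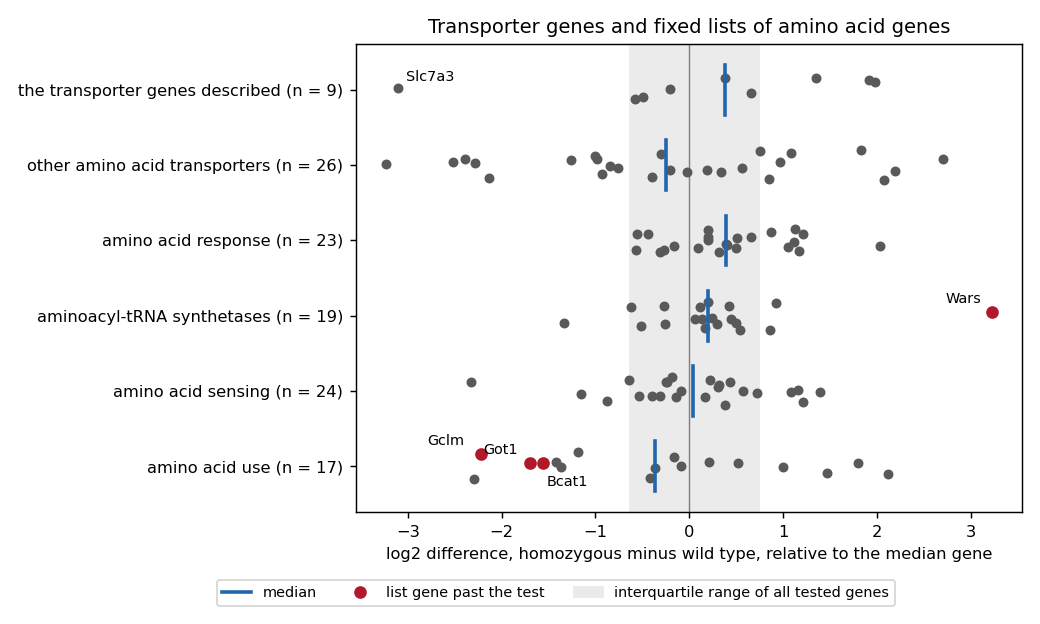
Log2 difference of homozygous minus wild type relative to the median gene (horizontal axis), 1 point per gene, for the 9 tested transporter genes and the 5 lists of other amino acid genes; blue bars are medians, red points are list genes past the test, and the grey band is the interquartile range of all tested genes. The list medians lie between -0.36 and 0.39, and Wars, at 3.23, stands apart from the other synthetase genes, while Gclm, Got1 and Bcat1 lie among other genes of their list.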

How the data were processed

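Total RNA (8 microgram per sample) of 4 mouse ES cell cultures was hybridised to 1 array each, per the labels. The authors deposited linear signal intensities, 1 per probe set and array; MAS5 is named in the submitters' processing notes. Its version, scaling target and any detection calls were not given in the sources used here. Gene names came from the platform annotation (34958 of 45101 probe sets had 1 symbol, 932 several, 9211 none). The signals were analysed as log2(signal + 0.675), the 20th percentile of all values, with the brightest probe set per gene and a filter at a mean signal of 2.55, the 40th percentile. limma 3.58.1 in R 4.3.3 fitted 1 mean per genotype (eBayes with an intensity trend, Benjamini-Hochberg, threshold 0.05), tested on simulated data. The single (1) residual degree of freedom comes from ko1 against ko2, and wild type and heterozygous were assumed to vary as they do. The fit also shares spread among genes of like intensity, with a median of 47.6 total degrees of freedom. Each SE is thus mostly borrowed from other genes and is not the gene's own spread. No label speaks of repeated cultures, so the p-values cover the spread among these samples alone, which may be technical. Where a group was at background, folds are bounds: the brighter mean over the background of the dimmer arrays, or the fitted fold where smaller. The named genes were all 10 transporters, the called members of each list with the extreme members not called, and the 5 genes nearest to Slc7a3. Members and lists were chosen with earlier results of these data known. The alternatives were other pseudocounts, scalings, probe set rules, filters and fits, and leaving out each homozygous array.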

Additional observations from a re-analysis of the deposited data

How the results depend on the processing

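No paired analysis was possible because only the homozygous group has replicate numbers. The calls depend on the settings, and the cause was not tested. For homozygous against wild type, 140 genes were called (55 higher, 85 lower). This became 56 with the pseudocount divided by 16, 33 (32 higher, 1 lower) after quantile normalization, 50 (45 higher, 5 lower) with median centring, 26 with spike centring (18 higher, 8 lower), 44 without the filter, 7 with probe sets averaged, 0 without the intensity trend (1232 genes at an unadjusted p below 0.05) and 90 in a fit of 2 groups (61 higher, 29 lower). The 2-group fit without ko1 gave 14 and without ko2 gave 32, alternatives chosen after seeing the data. For homozygous against heterozygous the count went from 104 to 45, 48, 24, 55, 10 and 0 with quantile normalization, median centring, spike centring, no filter, averaged probe sets and no trend. For heterozygous against wild type it went from 2 to 0 with each of these and with the smaller pseudocount (limma; 232 to 1267 genes at an unadjusted p below 0.05). The 4 pathway calls became 2 with the smaller pseudocount, 1 with median centring, without the filter and in the 2-group fit, and 0 under the other settings given here; with the pseudocount at the 40th percentile they were 6.

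Among the transporter genes, the homozygous differences relative to the median gene kept their sign under every alternative run for 8 of the 9 genes. Median centring, spike centring and leaving out the intensity trend cannot move a value on this scale, so they are no check of it. Slc7a3 ranged from -3.52 to -2.83 against wild type and Slc7a6 from 1.62 to 2.37. The exception, Slc1a4, changed sign against wild type with probe sets averaged and without ko1 (lowest -0.26). For Slc7a1 against wild type the value was 0.77 without ko1 and 1.76 without ko2. For heterozygous minus wild type the sign turned for Slc7a6 with probe sets averaged (0.67), Slc38a2 after quantile normalization (0.04) and Slc1a5 with the pseudocount at the 40th percentile (0.09). Signal near background limits Slc7a11 and Slc1a5, whose probe sets were above it on at most 1 array, and disagreeing probe sets limit Slc1a4.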
